A study of Homo sapiens with 24 samples.

Results

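Described here are 10 genes whose RNA level differed between fibroblasts carrying a hairpin against *HMGA1* and fibroblasts carrying an empty vector: *HSD17B2*, *SYTL2*, *NSG1*, *BDH2*, *FKBP7* and *ANKRD10*, which were higher with the hairpin, and *NPTXR*, *PODXL*, *SEMA4B* and *FNIP2*, which were lower. They are 10 of the 25702 gene identifiers in the count data and were chosen by their fold change between hairpin and vector cells in growing cells, for most of them also in cells made senescent by oncogenic RAS (RAS-induced senescence, RIS). All 10 passed the filter on low counts that left 13356 genes for testing.

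The RNA-seq data held 24 libraries of IMR90 cells, a human diploid lung fibroblast line, at passage 23 to 28, with 6 biological replicates in each of 4 groups. Every group had been infected with a retrovirus encoding ER:HRAS(G12V), an oncogenic HRAS fused to an oestrogen receptor domain that is switched on by 4-hydroxytamoxifen (4OHT), and with either an empty MSCV vector or MSCV miR30 shHMGA1, a hairpin in a miR30 backbone that targets the untranslated 3′ end of the *HMGA1* mRNA. The group growing carried the vector and had no 4OHT, shHMGA1 carried the hairpin and had no 4OHT, RIS carried the vector and had 6 days of 4OHT, and RIS+shHMGA1 carried the hairpin and had 6 days of 4OHT. Only 1 hairpin was used, so that loss of *HMGA1* and any other action of this hairpin cannot be told apart. In bulk RNA, fewer cells with a transcript and less of it per cell cannot be told apart either.

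HMGA1 is a small chromatin protein that binds the minor groove of A/T-rich DNA through its AT-hooks, bends DNA and helps transcription factor complexes to assemble. In senescent fibroblasts it is known as a component of the dense heterochromatin foci that form in the nucleus. The comparison asks which genes change when its level is lowered, with and without activated RAS.

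Total counts ranged from 8698070 to 23103424 per library with a median of 10604084. *HMGA1* had 639 to 861 CPM (read counts scaled to the TMM-normalised size of the library) in the 12 vector libraries and 54.4 to 262 CPM in the 12 hairpin libraries, and its relative *HMGA2* differed little between hairpin and vector (log2 fold change −0.15 ± 0.16 SE in growing and −0.29 ± 0.16 in RIS cells; edgeR quasi-likelihood test, adjusted p = 0.731 and 0.146). The log2 fold change of *HMGA1* was −2.76 ± 0.31 in growing and −2.05 ± 0.30 in RIS cells (edgeR, adjusted p = 1.9e-05 and 0.00065). Its mean was 105 CPM in shHMGA1 and 174 CPM in RIS+shHMGA1 cells. The difference between the 2 fold changes was 0.71 ± 0.41 (edgeR, adjusted p = 0.427). The hairpin lowered *HMGA1* the most in replicates 5 and 6, to 58.1 and 54.4 CPM in shHMGA1 cells and to 60 and 75.1 CPM in RIS+shHMGA1 cells. The 10 fibroblast markers examined summed to 5346 CPM or more in every library, with medians of 33332 CPM in growing and 21229 CPM in shHMGA1 cells, and, after 4OHT, of 10136 CPM with the vector and 5664 CPM with the hairpin. The epithelial markers *CDH1*, *KRT5*, *KRT14* and *SFTPC*, the endothelial markers *CDH5* and *KDR*, the blood markers *PTPRC*, *CD3E* and *HBB* and the neuronal markers *RBFOX3* and *GRIN1* were all under 1 CPM throughout. Of the other markers on these lists *EPCAM*, *PECAM1*, *VWF* and *SNAP25* reached at most 1.27 CPM, the keratin *KRT8* ranged from 1.78 to 11.4 CPM and *SYN1* from 1.87 to 5.75 CPM, and *CD68*, a lysosomal protein best known from macrophages, ranged from 40.2 to 105 CPM. A pair of libraries stood apart from their labelled groups. The library labelled growing replicate 4 had 212 CPM over 6 cycling-cell genes (529 to 856 in the others of its group) and 75810 CPM over 5 inflammatory genes of the senescence-associated secretory phenotype (SASP; 2018 to 9301 in the others). The library labelled RIS replicate 2 had 641 CPM of the first list (115 to 180 in the others) and 2409 CPM of the second (25175 to 55300). On both lists each of these libraries thus lay towards the levels of the other state, and whether their labels were exchanged was not tested. An exchange would change the growing and RIS ranges, the same-numbered differences of numbers 4 and 2 and the fold changes over 24 libraries. Values are therefore also given over the 22 libraries without these.

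Of the 10 genes, 4 had all 12 vector libraries on one side of all 12 hairpin libraries, whatever the state of the cells: *NSG1*, *PODXL*, *SEMA4B* and *FNIP2*. Such a full separation was found for 0.12% of all genes tested. In growing cells the 6 hairpin and 6 vector libraries did not overlap for any of the 10 genes (1.3% of all genes tested), and all 6 same-numbered differences had the same sign for each of them (9.16%). In RIS cells the groups did not overlap for 7 of the 10 (13.2% of all genes), with *HSD17B2*, *SYTL2* and *ANKRD10* overlapping, and all 6 differences had one sign for 9 of the 10 (41.6%), *HSD17B2* being the exception. With thresholds on the false discovery rate (FDR, below 0.01) and on the log2 fold change (beyond 0.58 in either direction), edgeR called all 10 in growing cells (0.27% of all genes), 8 in RIS cells (2.55%) and 8 in both (0.142%). These values chose the genes and are descriptions without a test. The 10 were not the only genes called, since 26 others passed the thresholds in growing cells and 11 others in both states. The calls changed with the libraries used and, like the values above, are no test. With each replicate number left out, 1 to 4 of the 10 were called in growing cells and 1 to 9 in RIS cells. Of all genes, 5 to 25 were then called in growing cells and 14 to 2205 in RIS cells. Over the 22 libraries all 10 were called in both, beside 2.59% of all genes in growing and 12.5% in RIS cells. The smallest change inside the thresholds in growing cells was that of *ANKRD10* (log2 fold change 0.62). In RIS cells *HSD17B2* (0.78 ± 0.31) and *SYTL2* (0.91 ± 0.22) were past the fold threshold but not the FDR threshold, and DESeq2 called *SYTL2* but not *HSD17B2*.

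**Figure D1:**
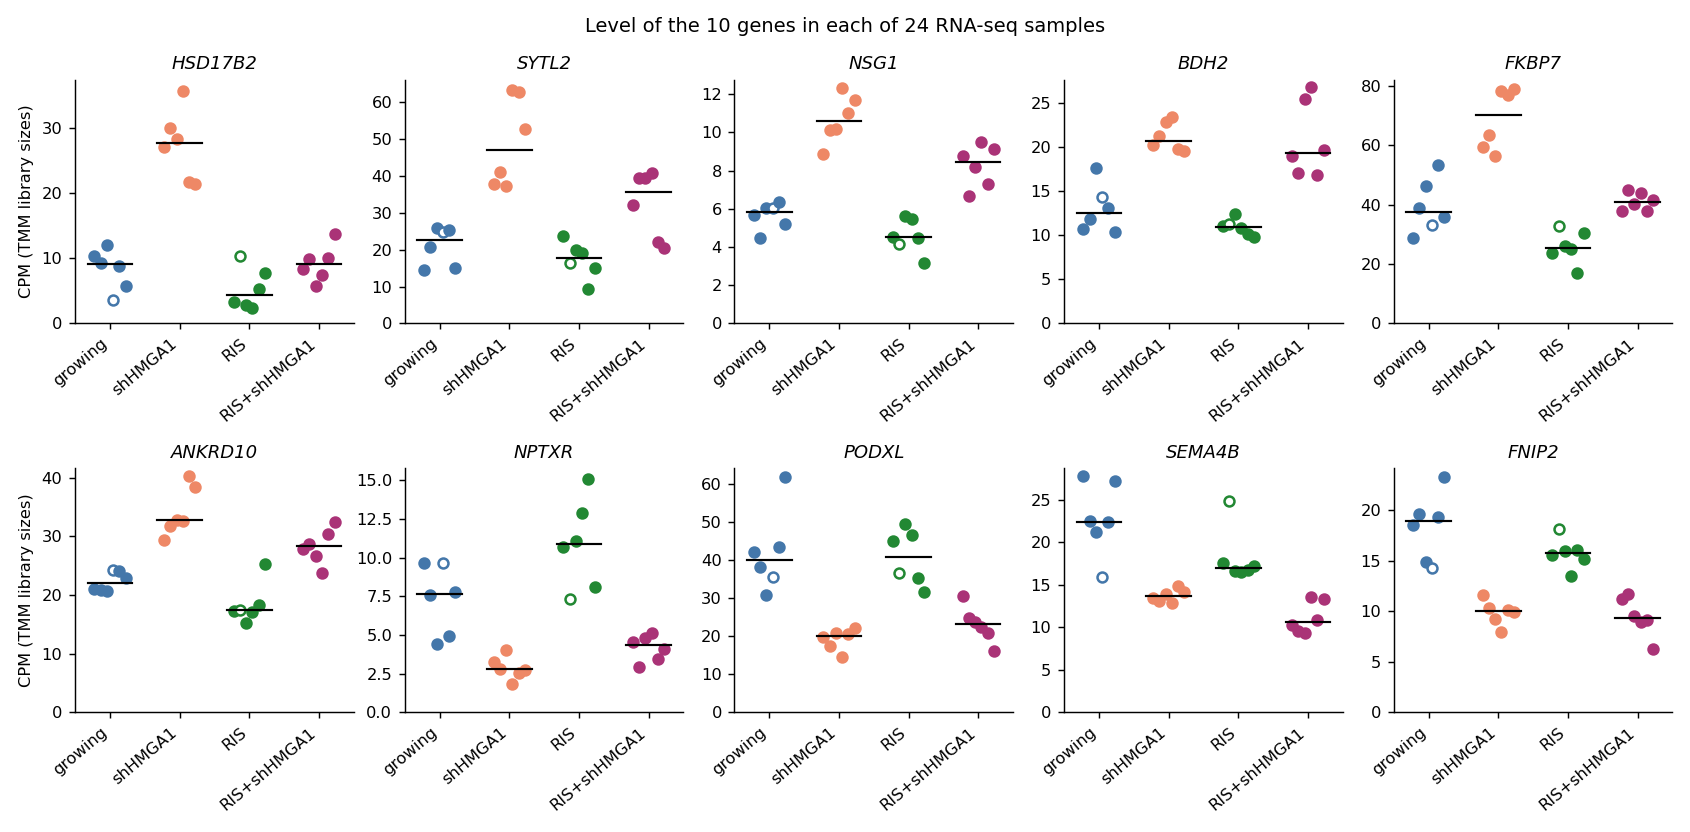
CPM on TMM-normalised library sizes of the 10 genes (vertical axes, each from 0) in the 6 libraries of each group, ordered by replicate number, with a bar at the group median; open points are growing replicate 4 and RIS replicate 2. In *NSG1*, *PODXL*, *SEMA4B* and *FNIP2* every hairpin library lies on one side of every vector library.

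**Figure D2:**
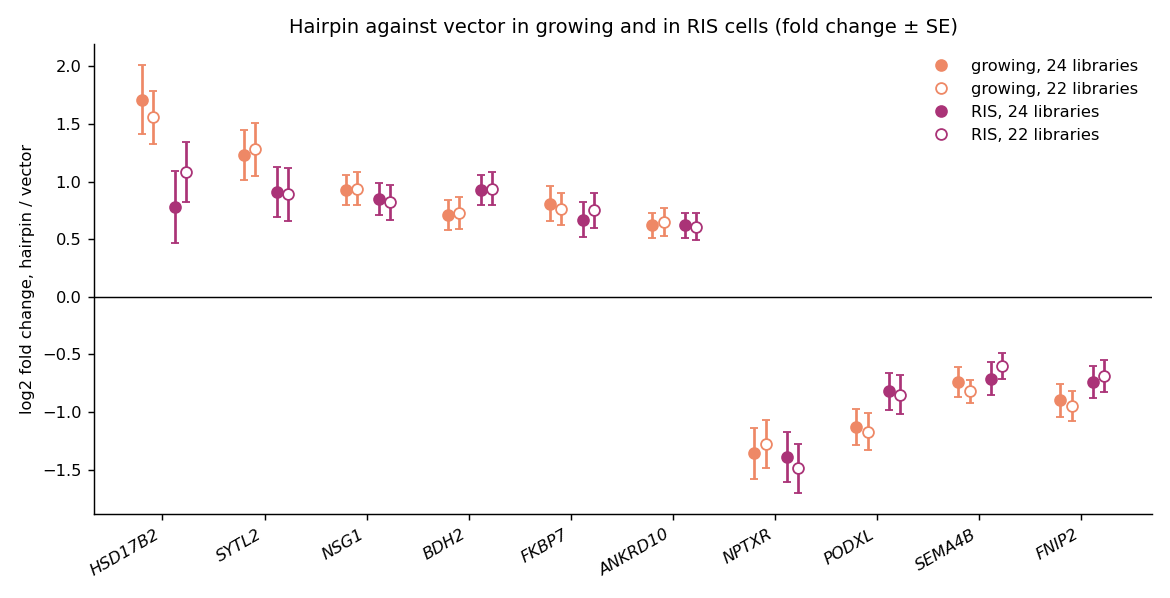
Log2 fold change of hairpin against vector ± SE from the edgeR fit, in growing cells (orange) and RIS cells (purple), over 24 libraries (filled) and over 22 libraries (open). The sign is the same in both states for all 10 genes, and the fold changes of *HSD17B2*, 1.71 in growing and 0.78 in RIS cells, lie farthest apart.

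*HSD17B2* encodes the 17β-hydroxysteroid dehydrogenase that oxidises oestradiol to oestrone and testosterone to androstenedione, and so lowers the active hormones inside a cell. The gene lies at chr16:82068609-82132139 on the plus strand (GRCh37). It ranged from 3.6 to 12.1 CPM in growing cells (median 9.08) and from 21.4 to 35.8 CPM in shHMGA1 cells (median 27.8). The groups were well apart, and the log2 fold change of 1.71 ± 0.30 (SE, n = 6 and 6), 3.26-fold, ranked 5th from the top among all genes tested. In RIS cells it ranged from 2.4 to 10.3 CPM (median 4.35) and in RIS+shHMGA1 cells from 5.82 to 13.8 CPM (median 9.11). Here the groups overlapped, and the fold change was 0.78 ± 0.31. The highest RIS value, 10.3 CPM, and the lowest growing value, 3.6 CPM, came from the libraries that stand apart, RIS replicate 2 and growing replicate 4, and without them the log2 fold changes were 1.08 ± 0.26 in RIS and 1.56 ± 0.23 in growing cells. The same-numbered differences in log2 CPM ran from 1.22 to 3.25 in growing cells and from −0.07 to 1.57 in RIS cells. The difference between the hairpin effects in RIS and in growing cells was −0.92 ± 0.43 over 24 libraries and −0.48 ± 0.35 over 22. The gene shares 248 exonic bases with *HSD17B2-AS1* on the opposite strand, which was not analysed here.

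*SYTL2* encodes a synaptotagmin-like protein that binds RAB27 on secretory vesicles and tethers them to the plasma membrane; it lies at chr11:85405267-85522202 on the minus strand (GRCh37). In growing cells it ranged from 14.4 to 25.8 CPM (median 22.7) and in shHMGA1 cells from 37.2 to 63.2 CPM (median 46.8), a log2 fold change of 1.23 ± 0.22. Every hairpin library was above every vector library. In RIS cells it ranged from 9.39 to 23.6 CPM (median 17.7) and in RIS+shHMGA1 cells from 20.4 to 40.8 CPM (median 35.5), a fold change of 0.91 ± 0.22. The overlap in RIS cells came from replicates 5 and 6 of RIS+shHMGA1, with 22.1 and 20.4 CPM, against 23.6 CPM in RIS replicate 1. The same-numbered differences were all above 0, from 0.53 to 1.79 in growing and from 0.43 to 1.26 in RIS cells.

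*NSG1* encodes a membrane protein of neuronal endosomes that takes part in the recycling of receptors to the cell surface. It lies at chr4:4349867-4420785 on the plus strand (GRCh37). It ranged from 4.49 to 6.35 CPM in growing cells (median 5.85) and from 8.88 to 12.3 CPM in shHMGA1 cells (median 10.6), and the log2 fold change was 0.93 ± 0.13. In RIS cells it ranged from 3.19 to 5.61 CPM (median 4.51) and in RIS+shHMGA1 cells from 6.69 to 9.51 CPM (median 8.46), with a fold change of 0.85 ± 0.14. The highest of the 12 vector libraries, 6.35 CPM, thus lay just under the lowest of the 12 hairpin libraries, 6.69 CPM. Same-numbered differences ran from 0.63 to 1.14 and from 0.53 to 1.47. *NSG1* shares 91 exonic bases with *STX18* on the opposite strand, and *STX18* itself had fold changes of 0.05 ± 0.09 and 0.16 ± 0.09 (edgeR, adjusted p = 0.87 and 0.153).

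*BDH2* encodes a cytosolic dehydrogenase known both for the oxidation of the ketone body β-hydroxybutyrate and for making an iron-binding siderophore. The gene lies at chr4:103998749-104021027 on the minus strand (GRCh37). Growing cells had 10.4 to 17.6 CPM (median 12.5) and shHMGA1 cells 19.6 to 23.4 CPM (median 20.7), a log2 fold change of 0.71 ± 0.13. RIS cells had 9.77 to 12.4 CPM (median 10.9) and RIS+shHMGA1 cells 16.8 to 26.8 CPM (median 19.4), a fold change of 0.93 ± 0.13. Neither comparison overlapped, and all same-numbered differences were above 0 (0.38 to 0.90 and 0.59 to 1.30). *BDH2* shares 397 exonic bases, 7.62% of its own, with *SLC9B2* on the same strand, which reads cannot fully tell apart; *SLC9B2* had fold changes of 0.22 ± 0.15 and 0.20 ± 0.15 (edgeR, adjusted p = 0.553 and 0.288).

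*FKBP7* encodes a prolyl isomerase of the FK506-binding family that resides in the endoplasmic reticulum, where such enzymes help proteins to fold. It lies at chr2:179328391-179343327 on the minus strand (GRCh37). It ranged from 28.8 to 53.3 CPM in growing cells (median 37.4) and from 56.5 to 78.9 CPM in shHMGA1 cells (median 70.1), and from 17 to 32.8 CPM in RIS cells (median 25.4) and from 37.8 to 45 CPM in RIS+shHMGA1 cells (median 40.8). The log2 fold changes were 0.81 ± 0.15 and 0.67 ± 0.15, and neither pair of groups overlapped. Same-numbered differences ran from 0.29 to 1.24 and from 0.45 to 1.15. RIS+shHMGA1 cells thereby had a median near that of growing cells with the vector, while RIS cells were the lowest of the 4 groups. The highest RIS value, 32.8 CPM, was from RIS replicate 2. Without the libraries that stand apart RIS cells had 17 to 30.3 CPM, and the fold changes were 0.76 ± 0.14 and 0.75 ± 0.15.

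*ANKRD10*, an ankyrin repeat protein of little known function at chr13:111530887-111567416 on the minus strand (GRCh37), had the smallest change of the genes that were higher. It ranged from 20.6 to 24.2 CPM in growing cells (median 21.9) and from 29.3 to 40.3 CPM in shHMGA1 cells (median 32.7), with a log2 fold change of 0.62 ± 0.11. In RIS cells it ranged from 15.2 to 25.3 CPM (median 17.3) and in RIS+shHMGA1 cells from 23.8 to 32.4 CPM (median 28.3), with a fold change of 0.62 ± 0.11 again. The groups overlapped in RIS cells through a single library, RIS replicate 6 at 25.3 CPM. Same-numbered differences were among the tightest, from 0.43 to 0.74 and from 0.36 to 0.80. The highest growing value, 24.2 CPM, was from growing replicate 4, beside at most 24 CPM in the others of its group. Without the libraries that stand apart the fold changes were 0.65 ± 0.12 and 0.61 ± 0.12.

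*NPTXR* encodes the neuronal pentraxin receptor, a membrane protein that gathers secreted pentraxins at synapses. The gene lies at chr22:39214457-39240033 on the minus strand (GRCh37). It had 4.43 to 9.64 CPM in growing cells (median 7.67) and 1.8 to 4.04 CPM in shHMGA1 cells (median 2.77), a log2 fold change of −1.36 ± 0.22. It had 7.35 to 15.1 CPM in RIS cells (median 10.9) and 2.95 to 5.12 CPM in RIS+shHMGA1 cells (median 4.32), a fold change of −1.39 ± 0.22. In each state the groups were apart, in growing cells narrowly, and all same-numbered differences were below 0, though that of number 3 in growing cells was only −0.13. They ran from −2.32 to −0.13 in growing and from −2.09 to −0.97 in RIS cells. The difference of −2.32 involved growing replicate 4, and the lowest RIS value, 7.35 CPM, was from RIS replicate 2. Without these libraries RIS cells had 8.12 to 15.1 CPM, and the fold changes were −1.28 ± 0.21 in growing and −1.49 ± 0.21 in RIS cells. *NPTXR* also had the lowest count of the 10 genes in a single library, 20 reads, and the precision of its lowest values is limited by this.

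*PODXL* encodes podocalyxin, a heavily sialylated mucin of the CD34 family that lowers adhesion between cells and is best known from the foot processes of kidney podocytes. It lies at chr7:131185021-131242976 on the minus strand (GRCh37). Growing cells had 30.7 to 61.6 CPM (median 40) and shHMGA1 cells 14.4 to 22 CPM (median 20), a log2 fold change of −1.13 ± 0.16. RIS cells had 31.5 to 49.4 CPM (median 40.6) and RIS+shHMGA1 cells 16.1 to 30.5 CPM (median 23), a fold change of −0.82 ± 0.16. The medians of the vector groups were nearly the same with and without 4OHT, and the hairpin libraries, at most 30.5 CPM, were all under the vector libraries, at least 30.7 CPM. Same-numbered differences ran from −1.48 to −0.56 and from −1.05 to −0.55.

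*SEMA4B* encodes a membrane-bound class 4 semaphorin, a guidance cue of the kind that signals through plexin receptors, and lies at chr15:90703836-90772911 on the plus strand (GRCh37). It ranged from 15.9 to 27.8 CPM in growing cells (median 22.4) and from 12.9 to 14.9 CPM in shHMGA1 cells (median 13.7), a log2 fold change of −0.74 ± 0.13. In RIS cells it ranged from 16.5 to 24.9 CPM (median 16.9) and in RIS+shHMGA1 cells from 9.38 to 13.6 CPM (median 10.6), a fold change of −0.71 ± 0.14. Both extremes of the vector cells, the lowest growing value of 15.9 CPM and the highest RIS value of 24.9 CPM, were from the libraries that stand apart. Without them growing cells had 21.2 to 27.8 CPM and RIS cells 16.5 to 17.6 CPM, and the fold changes were −0.82 ± 0.10 and −0.60 ± 0.11. Same-numbered differences ran from −1.04 to −0.31 and from −1.37 to −0.27.

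*FNIP2* encodes a partner of folliculin; together they bind the energy sensor AMPK and act on the Rag GTPases that relay amino acid supply to mTORC1. It lies at chr4:159690178-159829202 on the plus strand (GRCh37). It had 14.3 to 23.3 CPM in growing cells (median 18.9) and 7.92 to 11.6 CPM in shHMGA1 cells (median 10), a log2 fold change of −0.90 ± 0.14. It had 13.5 to 18.2 CPM in RIS cells (median 15.8) and 6.25 to 11.7 CPM in RIS+shHMGA1 cells (median 9.34), a fold change of −0.74 ± 0.14. Vector and hairpin libraries were again apart in both states, 13.5 CPM or more against 11.7 CPM or less. Same-numbered differences ran from −1.21 to −0.66 and from −1.25 to −0.48. The lowest growing value, 14.3 CPM, and the highest RIS value, 18.2 CPM, were from the libraries that stand apart. Without them growing cells had 14.9 to 23.3 CPM and RIS cells 13.5 to 16.1 CPM. The fold changes were then −0.95 ± 0.13 and −0.69 ± 0.14.

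**Figure D3:**
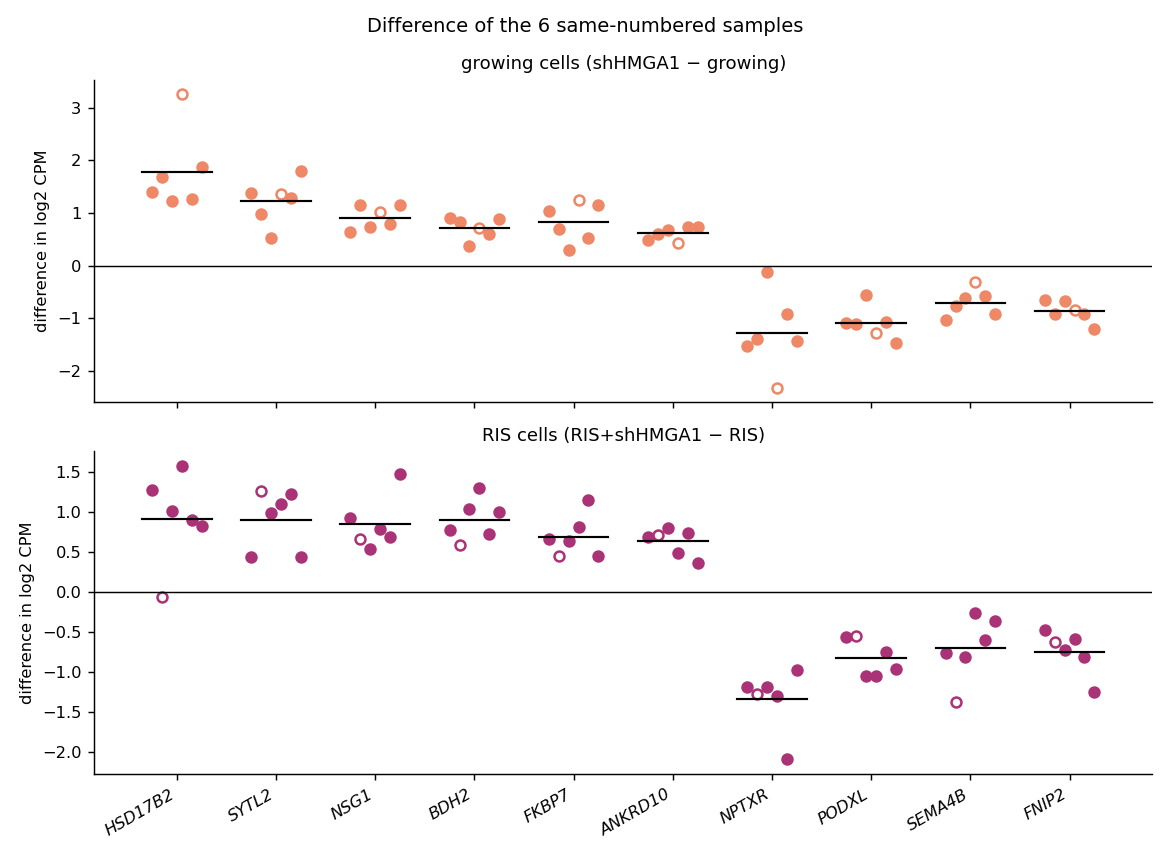
Difference in log2 CPM between the hairpin and the vector library of the same replicate number, for 6 numbers in growing cells (top) and RIS cells (bottom), with a bar at the mean; open points involve growing replicate 4 or RIS replicate 2. The only point on the other side of 0 from its group is *HSD17B2* of number 2 in RIS cells, at −0.07.

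The SASP, cycling-cell and fibroblast marker sums also differed between hairpin and vector cells. The summed SASP level had a median of 4455 CPM in growing and 8625 CPM in shHMGA1 cells, and of 41949 CPM in RIS and 95606 CPM in RIS+shHMGA1 cells. The summed cycling-cell level had medians of 724, 839, 163 and 240 CPM in the same order, and the fibroblast sum those given above, lower with the hairpin in both states. Their part in the differences of the 10 genes was not tested. Leaving out the libraries that stand apart did not turn any of the 20 hairpin fold changes. The genes were chosen by such fold changes, so this is no test.

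The effect of 4OHT averaged over vector and hairpin cells, (RIS and RIS+shHMGA1) against (growing and shHMGA1), weighs both equally and was tested. Its estimate of the spread is shared with the contrasts that chose the genes, so its p-values are not fully free of that choice. The spread also differed between groups for some genes, so its fold changes are not fully free of it either. *HSD17B2* and *FKBP7* fell with 4OHT and the other 8 did not pass both thresholds, so that 2 of 10 were called beside 32.3% of all genes tested. *HSD17B2* had a log2 fold change of −1.11 ± 0.22 (edgeR quasi-likelihood test, adjusted p = 0.00023) and *FKBP7* one of −0.68 ± 0.11 (adjusted p = 3.3e-05). In linear terms *HSD17B2* fell by 53.6% and *FKBP7* fell by 37.5%. Without the libraries of replicate number 5 *FKBP7* was at −0.55 (edgeR, adjusted p = 0.0007), under the fold threshold, and *HSD17B2* was then the only gene of the 10 called. *NPTXR* was the highest at 0.55 ± 0.16 (edgeR, adjusted p = 0.00455), under the fold threshold. Over the 22 libraries it rose by 0.63 ± 0.15 (edgeR, adjusted p = 0.00056), which made 3 of 10 called beside 44.3% of all genes. With 22 libraries the groups are also of unequal size, another reason why the averaged effect is not fully uncorrelated with the hairpin contrasts.

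Of the remaining genes, *SYTL2* had −0.45 ± 0.16, *NSG1* −0.34 ± 0.09, *SEMA4B* −0.31 ± 0.09 and *ANKRD10* −0.27 ± 0.08 (edgeR, adjusted p = 0.0167, 0.00401, 0.00648 and 0.00525). *BDH2* and *FNIP2* had −0.14 ± 0.09 and −0.14 ± 0.10 and *PODXL* had 0.11 ± 0.11 (edgeR, adjusted p = 0.19, 0.215 and 0.394). A log2 fold change below 0 was found for 8 of the 10, with a median of −0.29, beside 50.6% of all genes and a median of −0.01. For the 4 genes with an adjusted p between 0.00401 and 0.00648, the change was smaller than the fold threshold and its size, not its error, kept it from being called.

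**Figure D4:**
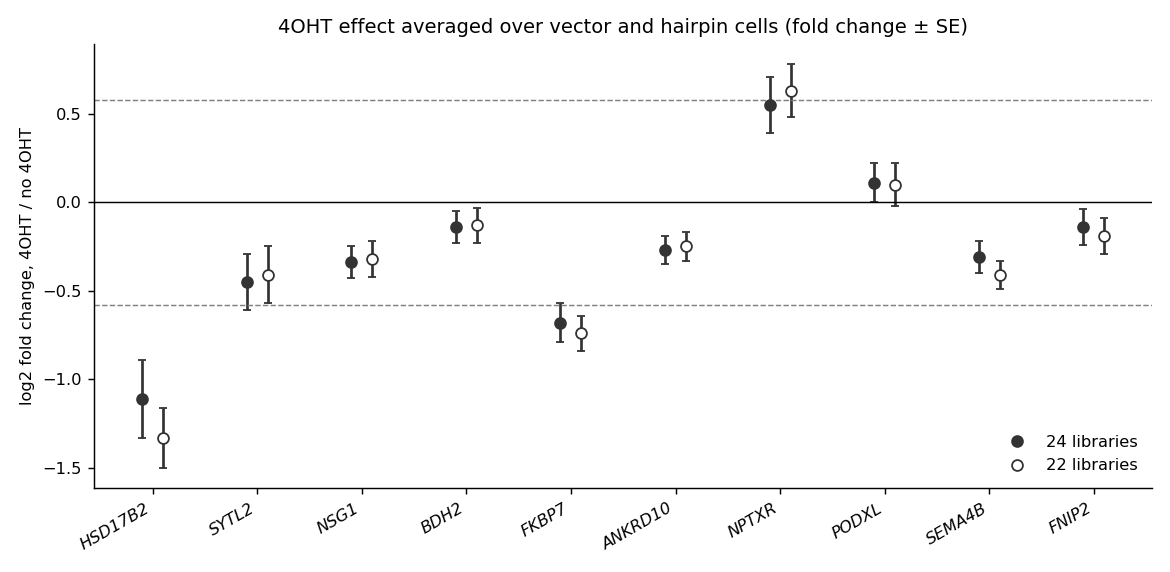
Log2 fold change ± SE of 4OHT against no 4OHT, averaged over vector and hairpin cells, for the 10 genes over 24 libraries (filled) and 22 libraries (open), with dashed lines at the fold threshold of 0.58 in each direction. *HSD17B2* (−1.11) and *FKBP7* (−0.68) lie beyond the lower line, and *NPTXR* crosses the upper one over 22 libraries only (0.63).

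Taken apart by vector, the 4OHT effect on *HSD17B2* was −0.65 ± 0.31 in vector cells and −1.57 ± 0.31 in hairpin cells, and −1.09 ± 0.27 in vector cells without the libraries that stand apart. For *FKBP7* it was −0.61 ± 0.15 and −0.75 ± 0.15, and for *NPTXR* 0.57 ± 0.21 and 0.53 ± 0.23. These share samples with the comparisons that chose the genes and are given without a test. The cycling-cell sum was 212 to 1144 CPM without and 115 to 641 CPM with 4OHT. Both it and the fibroblast sum had lower medians with 4OHT, as *HSD17B2* and *FKBP7* were lower, whereas *NPTXR* was higher. The part of these sums in the 4OHT effect of the genes was not tested. The 212 and 641 CPM were from the libraries that stand apart. Without them the cycling-cell sum was 529 to 1144 CPM without and 115 to 268 CPM with 4OHT.

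Over the 24 libraries the genes that were higher with the hairpin were correlated with each other at a Pearson r of 0.60 to 0.89 in log2 CPM (15 combinations), the lower ones at 0.53 to 0.90 (6 combinations), and higher with lower ones at −0.92 to −0.21 (24 combinations). The libraries share the hairpin and 4OHT differences for which or beside which the genes were chosen, so these are descriptions. *SEMA4B* followed the rest least, with −0.21 to *HSD17B2* and −0.30 to *FKBP7*. Among all other genes tested, those with the highest r over the 24 libraries were *CCDC68* (0.96), *MSC-AS1* and *TRPA1* for *HSD17B2*, *HPF1* (0.93), *HADH* and *UBE2T* for *SYTL2*, *ACAA2* (0.88), *MIR30A* and *AP4S1* for *NSG1*, *CDS2* (0.91), *CPQ* and *MMAB* for *BDH2*, *CNN3* (0.97), *IRAK4* and *PCNA* for *FKBP7*, and *RPSAP52* (0.91), *NQO1* and *OTULINL* for *ANKRD10*. For the genes that were lower they were *NACC1* (0.95), *RIPOR1* and *FGFRL1* for *NPTXR*, *BGN* (0.94), *GALNT6* and *HMGA1* (0.87) for *PODXL*, *NONO* (0.93), *PIAS3* and *TMEM184B* for *SEMA4B*, and *TTC3* (0.94), *RAP1GAP2* and *LTBP2* for *FNIP2*. *PCNA*, the replication clamp, is one of the cycling-cell genes, and *HMGA1* is the target of the hairpin. The hairpin vector itself carries a miR30 backbone, and whether reads from it were counted as *MIR30A* was not tested.

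Promoters of 6 of the 10 genes were matched in RefSeq (GRCh38.p14), each from 250 bases before to 50 bases after the start of the gene. None was matched for *HSD17B2*, *SYTL2*, *NPTXR* and *PODXL*, which had the largest hairpin fold changes of the 10 in growing cells. HMGA1 prefers A/T-rich DNA, so the base composition of the 6 matched promoters was described. *BDH2* had a GC content of 42.3%, lower than all but 3.04% of 10412 promoters of tested genes, and *FKBP7* had 59.7%, with 28.4% of promoters lower. The other 4 lay above the median of 65.3%: *NSG1* had 77.3%, *ANKRD10* 78.3%, and *SEMA4B* and *FNIP2* 79.3%. The longest run of A and T was 9 bases in *BDH2* (15.3% of promoters have one at least as long) and 7 bases in *FKBP7* (32.5%), and 2 to 4 bases in the other 4, under the median of 5. The stretches of 30 bases around the runs of *BDH2* and *FKBP7* are shown to make this difference visible, on the strand of the gene and with the run in capitals. That of *BDH2*, at chr4:103099923-103099952 on the minus strand (GRCh38.p14), begins 118 bases before the start, and that of *FKBP7*, at chr2:178478762-178478791 on the minus strand, begins 191 bases before it.
BDH2: cagcacatacATTTATAAAgtgtatggatg
FKBP7: gaaacctgctgTAAAATAcgcgggtttagc
The AP-1 motif TGACTCA, searched on both strands, was found in none of the 6 promoters and in 3.12% of all 10412. At that share 6 promoters are too few for its absence to be informative, and no conclusion is drawn from it. A run of A and T is a description of these letters, and binding of HMGA1 was not measured in these samples.

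Family members and partners of the genes, 92 in all, were listed by function, and 74 of them passed the filter on low counts. With the hairpin in growing cells none of the 74 passed both thresholds by edgeR (0.27% of all genes did) nor by DESeq2, and 11 of them, 14.9%, had an unadjusted p under 0.05 beside 13.2% of all genes. Over the 22 libraries 3 were called, beside 2.59% of all genes, all higher: *HSD17B7* (log2 fold change 0.77), *HSD11B1* (1.88) and *RAB27B* (1.45). In RIS cells 2 of 74 were called, or 2.7% beside 2.55% of all genes, and 31 of them, 41.9%, had an unadjusted p under 0.05 beside 49.8% of all genes. These were *HSD17B7*, known as an enzyme of both oestrogen and cholesterol synthesis, which rose by 1.19 ± 0.24 (edgeR, adjusted p = 0.00493), and *TFEB*, the transcription factor of lysosome genes that folliculin holds in check, which fell by 1.16 ± 0.26 (edgeR, adjusted p = 0.00899). Over the 22 libraries, where 9 or 12.2% were called in RIS cells beside 12.5% of all genes, both were among them, at 1.04 and −1.01. Without replicate number 1, 2, 3, 5 or 6 both calls were lost (edgeR, adjusted p from 0.0131 to 0.0704), at fold changes of 1.03 to 1.28 for *HSD17B7* and −1.23 to −1.02 for *TFEB*, and without number 4 both were kept. In *TFEB* the fold change in growing cells was −0.29 ± 0.23. The median log2 fold change of the 74 was −0.04 in growing cells (−0.03 over all genes) and −0.00 in RIS cells (−0.06 over all genes). Of the single lists, the 8 semaphorin and plexin genes had the lowest median in RIS cells, −0.76 over 24 and −0.48 over 22 libraries. None of the 8 was called there by edgeR over 24 libraries, with 6 at an unadjusted p under 0.05. DESeq2 called 2, *SEMA4F* and *PLXNB2*, where it called 1541 of all genes, and edgeR called 1, *PLXNB2* (−0.66), over the 22 libraries. Over the 22 libraries the list of *HSD17B2* had the largest share called in RIS cells, 4 of 13 or 30.8%, beside 12.5% of all genes. These were *HSD17B7*, *HSD17B11*, *HSD11B1* and *CYP19A1*, all higher.

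Close relatives chosen for naming whatever their values did not pass the thresholds with the hairpin. *FNIP1*, the paralogue of *FNIP2*, had −0.32 ± 0.20 in growing and −0.00 ± 0.20 in RIS cells (edgeR, adjusted p = 0.523 and 0.991), and *FLCN*, folliculin itself, −0.15 ± 0.15 and 0.04 ± 0.15 (adjusted p = 0.71 and 0.829). *BDH1*, the mitochondrial β-hydroxybutyrate dehydrogenase, had −0.43 ± 0.42 and 0.55 ± 0.40 (edgeR, adjusted p = 0.709 and 0.272). *NPTX1*, a secreted pentraxin, had 0.83 ± 0.37 and −0.68 ± 0.37 (edgeR, adjusted p = 0.334 and 0.142). *RAB27A*, the vesicle GTPase that SYTL2 binds, was nearly level at 0.07 ± 0.12 and −0.06 ± 0.12 (edgeR, adjusted p = 0.841 and 0.678). *FKBP9* had −0.03 ± 0.24 and −0.69 ± 0.24, and *FKBP10*, a collagen-folding isomerase, 0.01 ± 0.18 and −0.35 ± 0.18 (edgeR, adjusted p = 0.976, 0.0323, 0.988 and 0.123). A difference between each relative and its gene was not itself tested. *CD34* and *NPTX2* did not pass the filter on low counts, and neither did both relatives of *NSG1*, *NSG2* and *CALY*.

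With 4OHT, averaged over vector and hairpin cells, 18 of the 74 relatives rose and 17 fell, or 47.3% beside 32.3% of all genes. Among the ketone body and iron genes listed with *BDH2*, 6 of 10 rose and 1 fell. The ferritin chains *FTH1* and *FTL* rose by 0.94 ± 0.17 and 1.00 ± 0.21 and the iron importers *TFRC* and *SLC11A2* by 0.86 ± 0.17 and 0.78 ± 0.12 (edgeR, adjusted p = 0.00013, 0.0004, 0.00026 and 3.1e-05). *BDH1* rose by 1.38 ± 0.29, and *OXCT1*, which activates ketone bodies for use as fuel, fell by 1.13 ± 0.17 (edgeR, adjusted p = 0.00046 and 2.4e-05).

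Of the 15 folliculin, AMPK and Rag genes listed with *FNIP2*, 6 rose and 3 fell. *FNIP1* rose by 1.00 ± 0.14 and *FLCN* by 0.69 ± 0.11 (edgeR, adjusted p = 2.2e-05 and 3.2e-05), as did the AMPK subunits *PRKAA1* and *PRKAG1* and the Rag GTPases *RRAGC* and *RRAGD*, while the AMPK subunit *PRKAB2* and the transcription factors *TFEB* and *MITF* fell. *RRAGD* is low, from 0.0666 to 3.51 CPM in the group means, and its fold change was 3.86 ± 0.67 over 24 libraries (edgeR, adjusted p = 8.1e-05) and 5.49 over 22. *FNIP2* itself, at −0.14 ± 0.10, was not called for 4OHT.

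Of the 13 steroid enzymes listed with *HSD17B2*, 4 rose and 2 fell. *HSD17B14*, *HSD11B1*, which reactivates cortisol, *SRD5A3* and *CYP19A1*, the aromatase that makes oestrogens, rose, and *HSD17B6* and *HSD17B11* fell. *HSD17B6* is low, from 0.159 to 0.931 CPM in the group means. *CYP19A1* rose by 3.37 ± 0.67 over 24 libraries (edgeR, adjusted p = 0.00024) and by 5.14 over 22. Its group means went from 3.5 and 0.545 CPM in growing and shHMGA1 cells to 8.3 and 22 CPM in RIS and RIS+shHMGA1 cells. The growing mean had an SD of 7.86 CPM and is uncertain. The hairpin fold change of *CYP19A1* in growing cells was −2.50 ± 1.05 over 24 and 0.79 over 22 libraries (edgeR, adjusted p = 0.3 and 0.351). *HSD17B11*, which like *HSD17B2* oxidises steroids, fell by 1.14 ± 0.17 (edgeR, adjusted p = 2.3e-05), beside the −1.11 of *HSD17B2*.

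The next lists had 37.5% (*SYTL2*) and 33.3% (*FKBP7*) of their genes called, close to the 32.3% of all genes. In the vesicle docking list of *SYTL2*, 1 of 8 rose (*UNC13D*, a factor that primes vesicles for release) and 2 fell. Those that fell were the *SYTL2* paralogues *SYTL4* (−0.96 ± 0.19) and *SYTL5* (−2.21 ± 0.41), at edgeR adjusted p = 0.0002 and 0.00014. *UNC13D* is low, from 0.174 to 1.59 CPM in the group means, with an SD of 1.01 CPM in growing cells. In the FK506-binding list of *FKBP7*, *FKBP1A* rose by 1.28 ± 0.18 and 3 of 12 fell, the endoplasmic reticulum isomerases *FKBP9* (−0.97 ± 0.17) and *FKBP10* (−0.59 ± 0.13) and the glucocorticoid-inducible *FKBP5* (−1.98 ± 0.28; edgeR, adjusted p = 2.2e-05, 8.2e-05, 0.00061 and 2.1e-05). Of the semaphorin and plexin genes of *SEMA4B*, 4 of 8 fell, *SEMA4F* and the receptors *PLXNB1*, *PLXNB2* and *PLXND1*, and none rose. Their fold changes lay between −1.04 and −0.78, beside −0.31 for *SEMA4B*. The long pentraxin *PTX3* fell by 1.00 ± 0.26 in the list of *NPTXR*, and *EZR*, the ezrin that links podocalyxin to actin, by 1.97 ± 0.32 in that of *PODXL* (edgeR, adjusted p = 0.00223 and 4.6e-05).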

How the data were processed

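RNA-seq counts of 24 samples were analysed, grouped and numbered by their labels. Members and gene lists were chosen with earlier results of these data known. Per the labels, the authors trimmed with cutadapt 1.10.0, mapped to hg19 with STAR 2.5.0b and deposited raw counts per Entrez gene from Rsubread, without normalisation; the annotation and strand setting of counting are not given in the sources used here, although the kit is stranded. Symbols came from a RefSeq table (23696 of 25702 identifiers), and gene positions from GENCODE on GRCh37.

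All 24 libraries entered one edgeR 4.0.16 quasi-likelihood fit of group means in R 4.3.3 (limma 3.58.1), after filterByExpr by group (13356 genes) and TMM normalisation. A gene was called at an FDR (Benjamini-Hochberg) below 0.01 with a log2 fold change beyond 0.58 in either direction. CPM used TMM-scaled library sizes, with a prior count of 2 on the log2 scale. SE is the fold change divided by the root of its F value. The 10 genes were tested only for the 4OHT effect averaged over vector and hairpin cells. With 6 libraries and an equal spread in every group, its fold change would be uncorrelated with the hairpin contrasts that chose them. The spread was not equal for every gene: *SEMA4B* had an SD of 4.36 CPM in growing and 0.738 CPM in shHMGA1 cells. The fold change of the averaged effect is therefore not fully free of that choice. The estimate of the spread is shared by all contrasts, so its p-values are not fully free of that choice either. Over the 22 libraries the groups are also of unequal size, another reason why the fold changes are not fully uncorrelated. Named besides them were HMGA1, HMGA2, relatives past the thresholds in any contrast, 9 relatives whatever their values, and the 3 genes most correlated with each; some listed genes are not reported here. The scripts were tested on simulated counts with known changes.

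Same-numbered libraries deviated together unevenly (r over 0.1 in 24 of 36 pairs, from −0.594 to 0.828), so no pairing was used. These r were taken about group means that include growing replicate 4 and RIS replicate 2, and were not recomputed without them. No libraries were duplicates (lowest chi-square per degree of freedom 2.9 over 60 pairs within groups). Alternatives were DESeq2 1.42.0, RLE normalisation, no filter on low counts, the replicate block, leaving out each replicate number, leaving out growing replicate 4 and RIS replicate 2, also with the block, and, chosen after seeing the data, sample quality weights in limma.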

Additional observations from a re-analysis of the deposited data

Results flagged for a closer look

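In the 40 groups of 6 libraries tested for a value far from the rest (10 genes in 4 groups), 2 were found, and chance alone gives about 1 in 20 groups, or 2. *ANKRD10* in RIS replicate 6 was the highest of its group at 25.3 CPM, and the other RIS libraries lay between 15.2 and 18.2 CPM. In log2 CPM its gap to the next library was 0.651 of the group's range (above Dixon's limit at the usual level). *SEMA4B* in RIS replicate 2, one of the libraries that stand apart, was the highest of its group at 24.9 CPM. Its gap was 0.836 of the range, also in log2 CPM.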

How the results depend on the processing

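The 10 genes kept the sign of their hairpin fold change in all 130 values recomputed under 13 alternatives in growing cells and all 130 in RIS cells. The genes were chosen for these shifts and the alternatives reuse the same libraries, so an unchanged sign is a description and no test. Of the 130 recomputed averaged 4OHT effects, 1 lost its call (*FKBP7* without replicate number 5) and 5 gained one (*SYTL2* without number 1, *NPTXR* in the others), and none changed sign. The count of 2 genes called for 4OHT became 3 over 22 libraries, with and without the block, 3 with sample weights, and 1 to 3 with a replicate number left out.

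Counts of calls moved far more. For the hairpin in growing cells, 36 genes became 98 by DESeq2, 23 without the filter on low counts, 348 over 22 libraries and 484 with the replicate block as well, 845 with sample weights and 5 to 25 with a replicate number left out. In RIS cells, 341 became 1541, 189, 1677, 1938 and 1856 under the same settings, 1637 with the replicate block alone and 14 to 2205 with a number left out. For the averaged 4OHT effect, 4319 became 6547 with sample weights and 2853 to 5123 with a number left out. Relatives called in growing cells rose from 0 to 3 over 22 libraries, 4 with the block as well and 3 with weights. In RIS cells 2 became 8 by DESeq2, 1 without the filter, 7 with the block, 9 over 22 libraries, 10 with the block as well, 8 with weights and 0 to 11 with a number left out. The causes were not tested. Leaving out a number removes 4 libraries; without number 4 or 2 one of the libraries that stand apart is lost. Without the filter 6 and 7 of the 10 genes were called in growing and RIS cells, beside 23 and 189 of all genes. With the block 8 and 9 of the 10 were called, beside 36 and 1637 of all genes. What a replicate number marks is not given, and same-numbered libraries correlated at a mean r of 0.175 beside −0.0496 for different numbers, without reaching an r over 0.1 in every pair, so the block is an alternative here. These r include the libraries that stand apart. Counts of 20 to 22 reads limit the lowest values of *NPTXR* and *HSD17B2*.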
